A study of Mus musculus with 8 samples.

Results

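B-cell acute lymphoblastic leukaemia (B-ALL) cells of mice overexpressing N-Myc were compared with normal B220+ bone marrow cells. The comparison took every gene of the deposited table with an FPKM (mapped fragments scaled by transcript length and library total) of at least 1 in either library, which left 10608 of 16434 genes. The difference used throughout is that of log2(FPKM + 1), B-ALL minus normal, while folds divide the FPKM values directly. A gene was counted as higher or lower when this difference was at least 1. This is at least 2-fold on the log2(FPKM + 1) scale and understates the change of low genes. Within 2-fold refers to the same scale, so the direct fold of such a gene can exceed 2. Each side had 1 library, so no difference has a replicate check, no p-value is given, and all values describe these 2 libraries. The intervals printed beside folds are exact 95% intervals from the fragments behind each value and cover counting error only.

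Poly(A)-selected RNA was sequenced from 8 sorted populations of C57BL/6 bone marrow, for which the labels give an age of 8 to 10 weeks. The B-ALL library came from cells sorted as B220+ GFP+ and the normal library from B220+ cells of normal marrow. The other leukaemias were T-ALL (CD3+ GFP+), AML (Mac1+ Gr1+ GFP+) and an undifferentiated leukaemia, AUL (GFP+ and negative for B220, CD3, Mac1 and Gr1). Their normal counterparts were CD3+, Mac1+ Gr1+ and lineage-negative cells. Neither the promoter that drives N-Myc, the number of animals behind a library nor the stage of the leukaemia is given in the sources used here. A sort on B220 takes B cells of every stage and also cells of other kinds that carry B220. In such bulk samples, fewer cells of a type and less RNA per cell cannot be told apart.

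B cells form in the marrow from progenitors that first rearrange the immunoglobulin heavy chain with the Rag recombinase, then test it in a pre-B receptor built with the surrogate light chains Igll1 and Vpreb, and then rearrange a light chain. Pax5, Ebf1 and Tcf3 hold the cells in the B lineage, and signals through the B-cell receptor and NF-kappaB support the mature cell. N-Myc belongs to the MYC family of transcription factors, which pair with Max, bind the E-box letters CACGTG and are known for driving ribosome production, nucleotide synthesis and glycolysis. Acute lymphoblastic leukaemia of the B lineage is an expansion of cells arrested along this path.

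The B-ALL library rested on 42874115 fragments and the normal B220+ library on 39886611, within a range of 33818616 to 52280274 over the 8 libraries. At this depth an FPKM of 1 in a gene of median length (1562 bases) stands for 67.0 fragments in B-ALL, with an interval of 0.775 to 1.27. The introduced gene marked the groups as labelled. Mycn (ENSMUSG00000037169, mm10 chromosome 12, 12936096 to 12941914) reached 1587 FPKM in B-ALL against 1.66, 953-fold higher (803 to 1141). In the other leukaemias it had 719 to 1858 and in the other normal libraries 0.518 to 5.24.

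The B220+ label was checked against B-cell genes. B-ALL had 482 FPKM of Pax5, the factor that fixes B-cell identity, and 590.3 of the receptor chain Cd79a. T-ALL, AML and AUL had at most 2.65 of either gene. Normal B220+ cells had 1073 and 1121, so these genes were about 2-fold below normal in B-ALL. The other normal libraries held some B-lineage RNA, with 7.76 to 164 FPKM of Pax5.

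Both libraries also held RNA of other cell types. Plasmacytoid dendritic cell markers, which belong to interferon-producing cells that carry B220, were lower in B-ALL for 15 of 16 genes, with a median difference of -3.65. Siglech, a receptor of these cells, had 1.59 FPKM in B-ALL against 361, and their kallikrein Klk1 had 0.0568 against 85.6. The summed level of these markers was 282 FPKM in B-ALL and 2157 in normal B220+ cells. No marker of this list was at 0 in B-ALL, although Klk1 rested on 2 fragments there and Cd209d on 1. The part of these cells in the lower genes was not tested.

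Neutrophil markers were higher in B-ALL for 16 of 20 genes, with a median difference of 1.72 and a summed level of 13369 against 3809 FPKM. S100a8, an abundant calcium-binding protein of neutrophils, had 3581 against 748, and lactoferrin (Ltf) had 1730.1 against 368. Relative to the normal Mac1+ Gr1+ library, the 20 markers stood at a median of 6.74% in B-ALL and 1.63% in normal B220+ cells. The granule enzymes of early myeloid cells were not higher, with Mpo at 104 against 228 and Elane at 96.2 against 158. Retnlg, a late neutrophil gene, was at 304 against 92.9. The part of neutrophil RNA in the higher genes was not tested.

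T-cell markers were higher for 13 of 22 genes and lower for 4, with a median difference of 1.63 and a summed level of 579 against 366 FPKM. The receptor chains Cd3e (23.8 against 0.244), Cd3d (30.3 against 0.991) and Cd3g (23.8 against 1.34) were higher in B-ALL, as were the T-cell factors Tcf7 (85.0 against 6.81) and Bcl11b (5.99 against 0.0111). Over the 21 markers with at least 5 FPKM in T-ALL, the B-ALL level was a median of 9.63% of the T-ALL level. Cd4 was the main exception, at 0.533 in B-ALL and 85.5 in normal B220+ cells, and plasmacytoid dendritic cells also carry Cd4. The part of T-lineage RNA in the higher genes was not tested.

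Among markers of other marrow cells, 8 of 10 natural killer cell genes, 9 of 17 monocyte genes, 7 of 10 basophil and mast cell genes and all 3 measured megakaryocyte genes were lower. A further count left out genes that another normal library exceeded 4-fold, which removes most such markers. There, 2 natural killer cell genes, 0 basophil genes and 1 megakaryocyte gene were lower and 0 T-cell markers were higher. No neutrophil marker was left in that count. Of 12 erythroid genes 3 were lower (25%, against 21.9% of all genes), and 6 under median-of-ratios scaling. In addition, 1 gene was higher in each of the natural killer, monocyte and basophil lists. Of 6 stromal and endothelial genes 3 were higher (1 at FPKM of at least 5) and 2 lower.

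**Figure D1:**
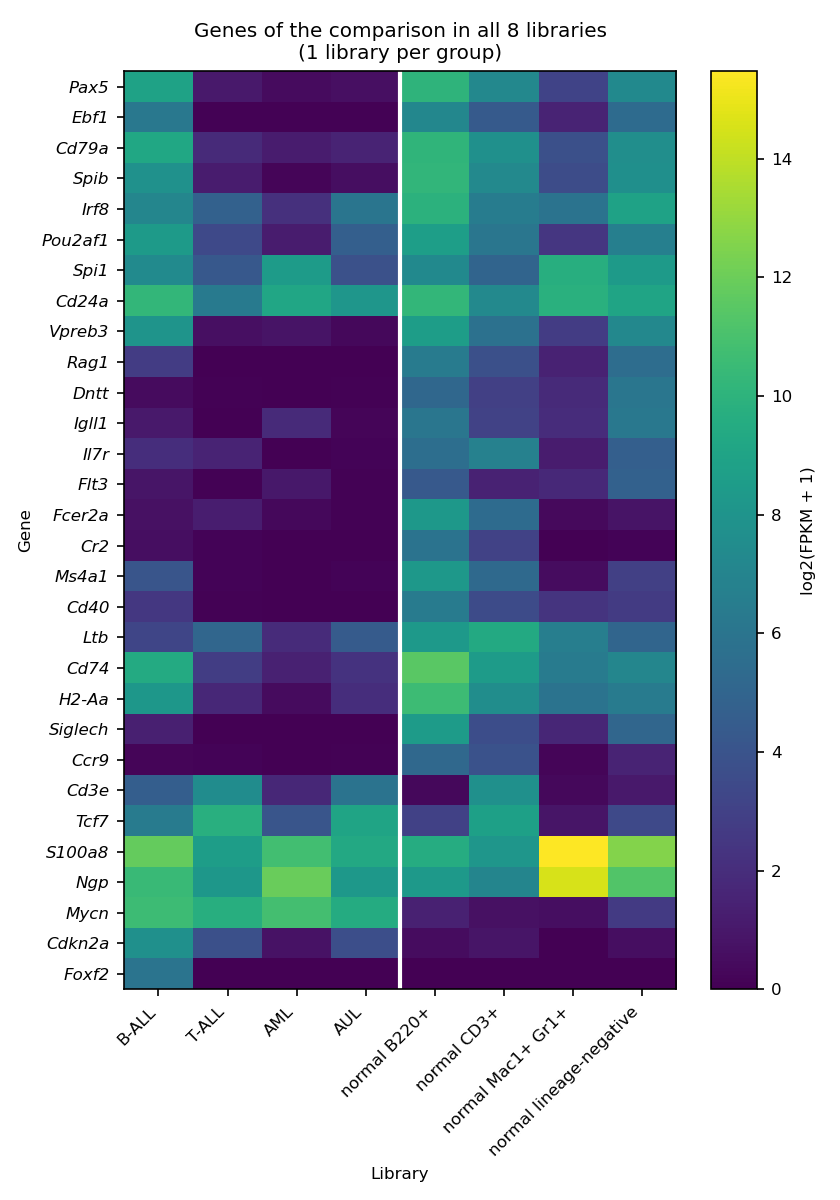
log2(FPKM + 1) of selected genes (rows) in the 8 libraries (columns, 1 library per group, leukaemias left of the white line). Pax5 and Cd79a were high in B-ALL and in normal B220+ cells and near 0 in the other leukaemias, whereas Rag1, Dntt, Igll1, Fcer2a and Cr2 were low in B-ALL.

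Of the 10608 genes, 1929 (18.2%) were at least 2-fold higher in B-ALL and 2319 (21.9%) at least 2-fold lower, which together makes 40.0%. Larger differences were more often downward. At least 4-fold, 361 genes (3.40%) were higher and 743 (7.00%) lower. The median difference over all genes was -0.02, and 1572 genes (14.8%) lay within 0.25 of no difference. In addition, 42 genes had at least 10 FPKM in B-ALL and under 1 in normal B220+ cells, and 119 genes had the reverse. At the edge of the rule, 169 genes had 1 to 1.1 FPKM in their higher library and entered, and 174 genes had 0.9 to 1 and did not.

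**Figure D2:**
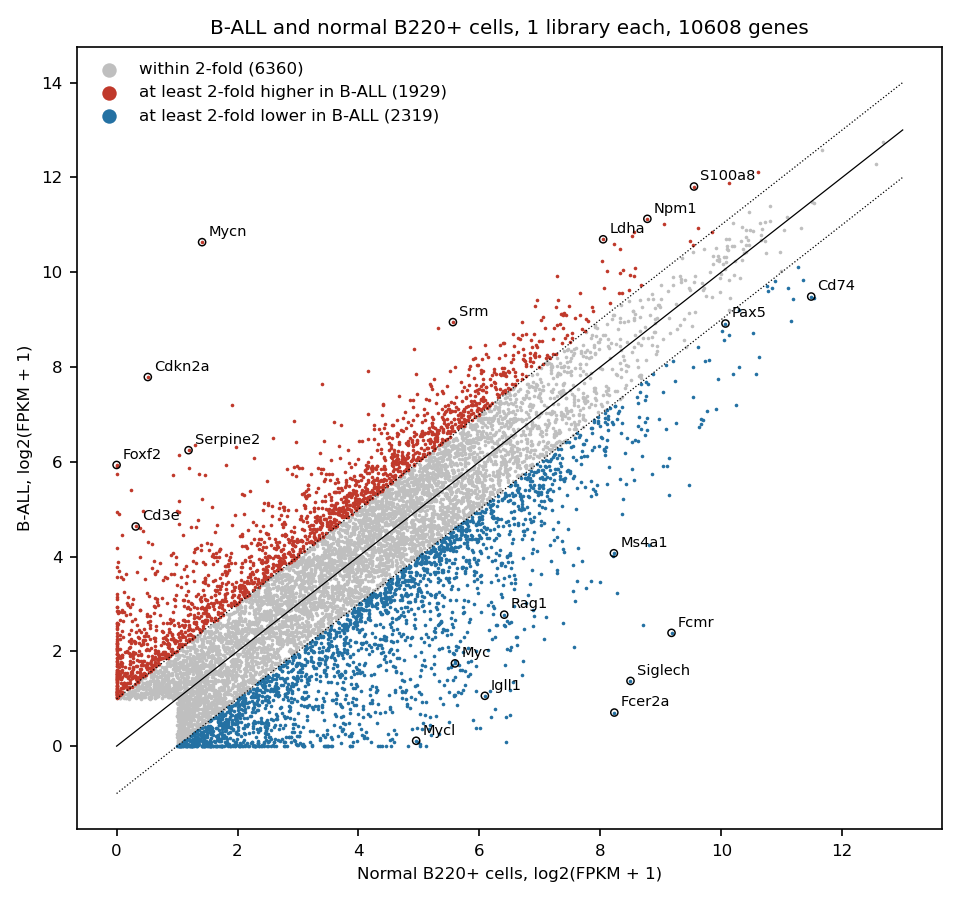
Each point is a gene, with log2(FPKM + 1) in normal B220+ cells on the horizontal axis and in B-ALL on the vertical axis. The solid line marks equal levels and the dotted lines 2-fold, and the 1929 higher genes (red) and 2319 lower genes (blue) spread to Mycn, Cdkn2a and Foxf2 above and to Fcer2a, Siglech and Fcmr below.

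Several genes at the high end were unlike any other library. Foxf2, a forkhead factor known from mesenchyme, had 60.1 FPKM in B-ALL and at most 0.025 in the 7 other libraries. The fold over normal B220+ cells, where no fragment was seen, was at least 1887 when a floor of 3 fragments is used. Lamb2, a laminin chain of basement membranes, had 51.4 in B-ALL and 0.914 in normal B220+ cells, and no other library exceeded 0.972. In all, 12 genes had at least 10 FPKM in B-ALL and under 2 in each of the 7 other libraries. Besides Foxf2 and Lamb2 they included Ltbp4, which binds latent TGF-beta (23.5), the carboxypeptidase N chain Cpn1 (13.7), the scaffold protein Mpp3 (12.7), the membrane proteins Tmem255a (11.6) and Tmeff1 (10.8), and Rd3l (15.4). The remaining 4 were the noncoding genes Platr10, AI427809, Gm27605 and Gm27898.

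Other genes of the high end were shared with some of the leukaemias. Cdkn2a, which encodes the p16 cell-cycle inhibitor and the ARF activator of p53, reached 219.9 in B-ALL against 0.430, and T-ALL (12.98), AUL (12.1) and AML (0.703) lay below it. The protease inhibitor Serpine2 had 74.8 in B-ALL, 44.4 in T-ALL and 8.99 in AML against 1.28 in normal B220+ cells. Nlgn2, a synaptic adhesion protein, had 46.1 to 72.1 in all 4 leukaemias and 1.26 to 10.2 in the normal libraries. Bcat1, which transfers the amino group of branched-chain amino acids, reached 88.99 in B-ALL against 4.98, with 51.3 in T-ALL and 68.04 in AUL but 2.47 in AML. The lysine methyltransferase Smyd2 had 59.6 against 2.51, the long noncoding RNA Crnde 22.1 against 0.348, the centromere protein Cenpv 116 against 6.68 and the co-chaperone Bag2 66.6 against 3.81.

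Ankrd13b (80.2 against 1.44), the carbonic anhydrase Car12 (30.0 against 0.354), Camkv (52.7 against 1.56) and the glycoprotein Fstl1 (57.4 against 1.30) also ranked among the 25 highest. Eml1, a microtubule-binding protein, had 17.04 FPKM in B-ALL and a single fragment in normal B220+ cells, so its fold of 1901 has an interval of 341 to 75108. Rnf43, a ubiquitin ligase that removes Wnt receptors, had 29.6 against 1.04, and Ccdc85c had 34.9 against 1.04. Rpph1, the RNA component of ribonuclease P, had 197.6 FPKM against 9.59. It lay at 197.6 to 225.6 in the 4 leukaemias and 7.56 to 9.59 in the 4 normal libraries. Mycn and Nlgn2 also separated leukaemias from normal libraries, and how many of all genes do so was not counted. Rpph1 RNA is not polyadenylated, so its level in a poly(A)-selected library also depends on the selection, whose part was not tested.

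At the low end stood genes of mature B cells and genes of the plasmacytoid dendritic cell list. The mature B genes were the IgE receptor Fcer2a (0.634 against 299.6), the IgM receptor Fcmr (4.24 against 578), the complement receptor Cr2 (0.475 against 58.1) and the cytokine Ltb (8.36 against 310.4). Clec10a (0.528 against 72.1), Cd209a (0 against 27.3) and Rnase6 (3.26 against 189), which are genes of dendritic cells and macrophages, were also among the 25 lowest, as were Adam11 (0.726 against 75.1), Lynx1 (1.26 against 90.2) and the adaptor Scimp (0.302 against 30.2). The magnesium transporter Slc41a2 (0.291 against 32.2), Trim7 (0.558 against 37.7) and Bcar3 (1.16 against 50.8) were among them too. Alb, serum albumin, had 0 FPKM in B-ALL against 33.5. It was at 31.2 to 34.6 in all 4 normal libraries, at 80.0 in AUL and at most 0.0526 in T-ALL and AML.

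The abundant genes that differed least were those of translation, the cytoskeleton and the mitochondrial genome. Eef1a1, the elongation factor that brings transfer RNA to the ribosome, had 6899 against 6522, Actb 2815 against 2974 and mt-Cytb 2842 against 2909. Rps15 had 1634 against 1607, and Rplp1 had 1899 against 2096.

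Other MYC-family genes were also at different levels. Myc had 2.35 FPKM in B-ALL against 47.4 and Mycl 0.0816 against 30.0, while Max, their partner, had 89.1 against 63.4. Among the antagonists that compete for Max, Mxd1 (65.5 against 25.2) and Mnt (74.8 against 33.0) were higher, Mxd3 (19.2 against 16.3) and Mxd4 (40.1 against 81.1) were within 2-fold. Of the 10 listed network genes, 3 were higher and 2 lower. The list summed to 1059.5 FPKM in normal Mac1+ Gr1+ cells and 364.6 in normal B220+ cells. The part of neutrophil RNA in the levels of Mxd1 and Mnt was not tested.

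No transcription factor of the B-lineage list was at least 2-fold higher in B-ALL and 16 of 26 were lower, with a median difference of -1.17. The core factors differed little more or less than 2-fold. Pax5 had 482 against 1073 FPKM, 2.23-fold lower (2.19 to 2.26), and Ebf1 had 73.7 against 144, 1.96-fold lower (1.91 to 2.01). Spi1 (PU.1) had 169.8 against 162, the B-cell coactivator Pou2af1 351 against 407 and the Wnt-responsive factor Lef1 12.8 against 10.6.

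Factors that act in mature or activated B cells and in dendritic cells were further apart. Irf8 had 137 against 965 and Spib 229 against 1176, and both genes are also high in plasmacytoid dendritic cells. Tcf4, which directs those cells, had 37.7 against 228. Foxo1, which drives Rag transcription in pre-B cells, had 4.17 against 22.4, 5.37-fold lower (5.09 to 5.68), and Bcl6, which protects pre-B and germinal centre cells, 3.38 against 17.1. Bach2 (58.7 against 142), Bcl11a (31.8 against 109), Mef2c (56.5 against 154), Irf4 (34.2 against 93.4) and the quiescence factor Klf2 (87.4 against 380.3) were lower as well.

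In the B-cell receptor signalling list, 23 of 32 genes were lower and none was higher, with a median of -1.55. The proximal kinases differed in size. Syk had 120.2 against 436 and Lyn 48.3 against 169, whereas Btk (95.7 against 137) and its substrate Plcg2 (83.9 against 97.2) were within 2-fold. Of the receptor's signalling chains, Cd79a (590.3 against 1121) was within 2-fold and Cd79b (279.8 against 845) 3.02-fold lower (2.97 to 3.08).

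Several members downstream were far lower. Rasgrp3, which passes diacylglycerol signals to Ras, had 0.190 against 21.4, 113-fold lower (64.9 to 200.5). Pik3ap1 (BCAP, a docking protein for PI3-kinase) had 16.3 against 123, and the receptor-like protein Fcrl1 had 10.7 against 84.0. Among inhibitory co-receptors, Cd72 had 118 against 502, Fcgr2b 31.1 against 99.6 and Cd22 160.1 against 318. Of the signalling complex that connects the receptor to NF-kappaB, Bcl10 (25.3 against 54.2) and Malt1 (13.6 against 46.9) were lower.

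Genes of the pro-B and pre-B stages were mostly lower in B-ALL, 12 of 18 against 1 higher, with a median of -1.85. The surrogate light chains Igll1 (1.09 against 67.1) and Vpreb1 (1.24 against 71.6) had little signal in B-ALL, and Vpreb2 had 0 against 19.4, at least 210.5-fold lower when the 3-fragment floor is used. The recombinase gene Rag1 had 5.84 against 84.1, while its partner Rag2 had 3.10 against 5.36. Dntt, the terminal transferase of pro-B cells, had 0.356 against 35.2. The receptors Il7r (3.05 against 48.0) and Flt3 (0.846 against 19.1), for growth factors of B progenitors, and Ly6d (44.8 against 706), an early surface marker of B-lineage commitment, were lower too.

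A few early B genes were near the normal level. Cd24a, a glycoprotein of immature B cells, had 1202 FPKM against 1198. Vpreb3, which is expressed from the pro-B to the immature stage, had 256 against 394, and Spn (CD43) 58.8 against 65.3. Bst1 (BP-3), a surface enzyme of early B cells and myeloid cells, was the 1 gene of the list that was higher, with 51.8 against 21.2, and normal Mac1+ Gr1+ cells had 112. Lineage-negative marrow also had 73.3 of Igll1 and 67.3 of Dntt, and it held the immunoglobulin constant regions Ighm (973) and Igkc (1944) too. Which cells of the normal B220+ library gave the early-gene RNA was not tested.

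Mature B-cell genes were lower as a list. Of 24 surface genes of mature B cells, 22 were lower and none higher, with a median of -2.93. The list includes Ms4a1 (CD20), which had 15.8 against 298, the receptor Cd40 with 4.77 against 85.2 and Tnfrsf13c (the BAFF receptor) with 17.0 against 166. The homing receptors Cxcr5 (2.93 against 52.0) and Ccr6 (0.163 against 15.99) and the activation marker Cd83 (0.609 against 31.5) were lower as well. Cd86, a costimulatory ligand, had 13.4 against 9.55, and S1pr4, a sphingolipid receptor, 39.9 against 50.6.

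Antigen presentation to helper T cells was lower along its length. In the MHC class II list, 12 of 13 genes were lower and none higher, with a median of -1.65. H2-Aa had 296 against 1579, H2-Ab1 812 against 2193 and the invariant chain Cd74 716 against 2869.6, 4.01-fold lower (3.96 to 4.06). Ciita, the transactivator of the class, had 17.6 against 50.1, and the peptide-loading modulators H2-Oa (5.25 against 40.03) and H2-Ob (56.7 against 366) had the largest differences. H2-Eb2 (16.5 against 25.9) was within 2-fold.

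The NF-kappaB list was lower as well, with 17 of 22 genes lower, none higher and a median of -1.96. The noncanonical subunits Nfkb2 (4.90 against 77.7) and Relb (4.28 against 37.4) were further down than Nfkb1 (55.6 against 129.8) and Rela (21.4 against 42.1). Feedback inhibitors that NF-kappaB itself induces were also lower, such as Tnfaip3 (A20, 6.93 against 69.2), Nfkbie (4.19 against 45.2) and Nfkbia (30.6 against 146). Of 12 plasma cell genes 5 were lower and 1 higher (median -0.73). Xbp1 (26.1 against 118) and the syndecan Sdc1 (7.85 against 41.4) were lower, the J chain (Jchain) had 20.2 against 19.5, and Mzb1 had 118 against 165.

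Most immunoglobulin transcripts were lower in B-ALL. The constant regions Ighm (704 against 2952 FPKM), Ighd (38.4 against 561) and Igkc (499 against 2263) were all lower, and Iglc2 of the lambda locus had 4.87 against 414. Igha (119 against 73.9) was within 2-fold, and Ighg2c, an IgG constant region, was higher (10.7 against 1.77). Of 112 heavy-chain V segments, 108 were lower and none higher, and of 107 kappa V segments 98 were lower and none higher. Summed over V segments, the heavy chain had 317 FPKM against 3271 and kappa had 385 against 4097.

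The make-up of the V segments differed between loci. Ighv2-2 led the heavy chain in B-ALL with 51.4 FPKM, 16.2% of the V sum, followed by Ighv14-2 with 13.02. In normal B220+ cells the leading segment, Ighv1-26, made up 5.68% (185.9 FPKM). Among kappa segments no single one stood out in B-ALL, where Igkv14-111 led with 22.4 FPKM, 5.81% of the sum. At the lambda locus Iglv1 made up 91.0% of the V sum in B-ALL (157.9 FPKM) and 52.3% in normal B220+ cells (426.9), and its partner constant gene Iglc1 had 111 against 326.

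Heavy-chain D and J segments differed among themselves. The 4 J segments summed to 1194 FPKM in B-ALL against 1511, and Ighj1 (347 against 321) and Ighj2 (241 against 209.9) were near the normal level, while Ighj3 had 227 against 310.3 and Ighj4 378 against 669. Ighd2-6 had 78.2 FPKM against 2.95 and Ighd4-1 had 271 against 141, while Ighd1-1 (9.13 against 61.0), Ighd2-3 (2.74 against 20.6) and Ighd3-2 (0 against 31.3) were lower. The D segments are short, so these values rest on few fragments, 57 and 2 for Ighd2-6 and 128 and 62 for Ighd4-1. Kappa J segments were lower, with a sum of 586 against 3723. FPKM of receptor segments depends on how reads that cross a rearranged junction were placed, and segments of similar sequence can share reads.

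**Figure D3:**
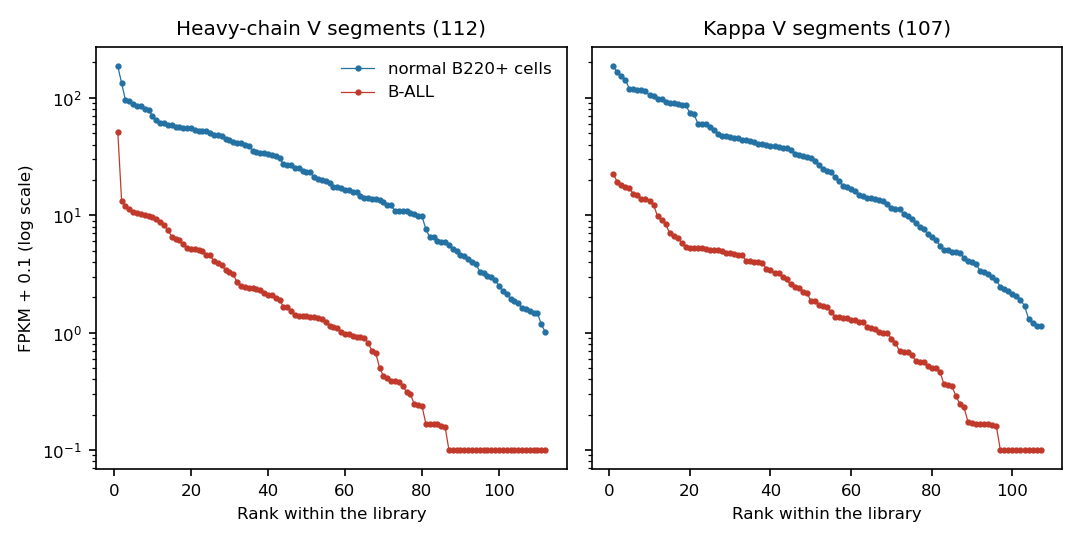
FPKM + 0.1 (log scale) of the heavy-chain and kappa V segments in the comparison, each library's segments ranked from its highest to its lowest. Normal B220+ cells (blue) lie above B-ALL (red) at every rank, and in B-ALL a single heavy-chain segment, at 51.4 FPKM, stands above the others.

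T-cell receptor transcripts were higher in B-ALL than in normal B220+ cells. Trbc2 had 146 against 2.75 FPKM, Trac 69.4 against 1.04 and Tcrg-C2 28.8 against 0.0274. Trbc1 differed less, with 48.9 against 11.55. The highest V segments in B-ALL were Trdv1 (58.9), Trbv2 (41.3), Trgv2 (23.4) and Trbv12-1 (20.99), each at most 0.306 in normal B220+ cells. Trbv1 followed with 8.33 against 0.421, and 6 of 22 beta-chain and 2 of 70 alpha-chain V segments had at least 1 FPKM in B-ALL. Trbv12-1 (473), Trdv1 (272) and Trgv2 (209) were also high in T-ALL, while Trbv2 had 0 there and 23.6 in normal CD3+ cells. Relative to T-ALL, the B-ALL library had 4.43% of Trbv12-1, 21.7% of Trdv1, 11.2% of Trgv2 and 26.5% of Trbc2. These shares differed from segment to segment.

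Several lists of growth genes had a larger share of higher genes than the 18.2% over all genes. The group with the highest median, nucleolar ribosome biogenesis, had 28 of 29 genes higher and none lower (median 2.04). Its members included Rrp1b (148 against 20.2), the methyltransferase Nop2 (143 against 29.0), nucleophosmin (Npm1, 2232 against 438), nucleolin (Ncl, 1207 against 261) and the box C/D proteins Nop56 (609.6 against 154) and Nop58 (286.4 against 65.1). Of the RNA polymerase I and III genes, 7 of 16 were higher and none lower (median 0.90), led by Polr1b (103 against 19.1).

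The proteins of the ribosome itself were nearer to the normal level. No gene of 29 cytosolic ribosomal proteins was at least 2-fold higher, the median was 0.31, and the 1 lower gene was the Rpl22 paralogue Rpl22l1 (55.6 against 132). Rps2 was the highest, with 2112 against 1173. Translation factors lay between, with 11 of 21 higher and none lower (median 1.02). Eif5a, the hypusine-bearing factor, had 2056 against 531, and the cap-binding factors Eif4e (127 against 41.7) and Eif4g1 (546 against 171) were higher. Among transfer RNA synthetases, 6 of 20 were higher, such as Gars (189 against 52.5), and none lower (median 0.89).

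Nucleotide synthesis was higher along both branches, with 24 of 28 genes higher, none lower and a median of 1.54. Uck2, which salvages uridine and cytidine, had 448 against 38.8, 11.6-fold higher (11.1 to 12.1). Cad, which starts pyrimidine synthesis, had 213 against 37.0, and Ctps 116 against 23.9. In the purine branch Ppat (53.04 against 9.47), Gart (166 against 24.5), Pfas (102 against 18.2) and Impdh2 (379.7 against 115) were all higher. The ribonucleotide reductase subunit Rrm2 (165 against 155) and Prps2 (66.9 against 54.7) were within 2-fold.

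One-carbon supply had 11 of 18 genes higher and 1 lower (median 1.19). Both serine hydroxymethyltransferases were higher, the cytosolic Shmt1 (146 against 20.2) more than the mitochondrial Shmt2 (184 against 36.2). Phgdh, which opens serine synthesis, had 383 against 101, and the folate carrier Slc19a1, counted among the transporters, had 113 against 11.1, 10.2-fold higher (9.36 to 11.2). Polyamine enzymes included the spermidine synthase Srm (492 against 46.2) and ornithine decarboxylase Odc1 (164 against 48.0), while Sat1, which breaks polyamines down, was lower (67.1 against 203). Mtap, the salvage enzyme that is often lost together with CDKN2A in human tumours, had 61.7 against 13.4.

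Of 29 glycolysis genes 14 were higher and 1 lower (median 0.94). The count was 7 without genes that another normal library exceeded 4-fold. The list summed to 8005 FPKM in B-ALL, 2519 in normal B220+ cells and 11693 in normal Mac1+ Gr1+ cells, whose neutrophil markers were higher in B-ALL, and their part was not tested. Ldha had 1654 against 263, Eno1 1543 against 299, Pkm 1829 against 374 and the lactate exporter Slc16a3 31.9 against 5.84. Hk2 (35.1 against 9.58) was higher, whereas Hk1 (24.9 against 50.4), Ldhb (9.10 against 17.0) and the glucose transporter Slc2a1 (19.6 against 27.5) were within 2-fold. Genes of the citric acid cycle (5 of 26 higher, median 0.53) and the respiratory chain (6 of 16 higher, median 0.74) had lower medians. The citric acid cycle share, 19.2%, was near the 18.2% of all genes. The respiratory chain count was 2 under median-of-ratios scaling and 3 with a common FPKM sum.

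Lipid synthesis genes had shares near those of all genes (18.2% higher, 21.9% lower), with 4 of 22 higher, 3 lower and a median of 0.08. Fatty acid synthase (Fasn) had 198 against 35.3, but the desaturase Scd1 had 20.4 against 156. Of amino acid and nucleoside transporters 7 of 17 were higher and 2 lower, with the leucine transporter Slc7a5 at 192 against 35.6 and the arginine transporter Slc7a1 at 104 against 26.7. Folding and mitochondrial import genes had 18 of 29 higher and 2 lower (median 1.30), among them the mitochondrial chaperonin Hspd1 (678 against 123) and Cct8 of the cytosolic chaperonin (753 against 202). Their heat-inducible members, Hspa1a (0.645 against 2.34) and Hspa1b (2.20 against 10.1), were the lower genes.

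**Figure D4:**
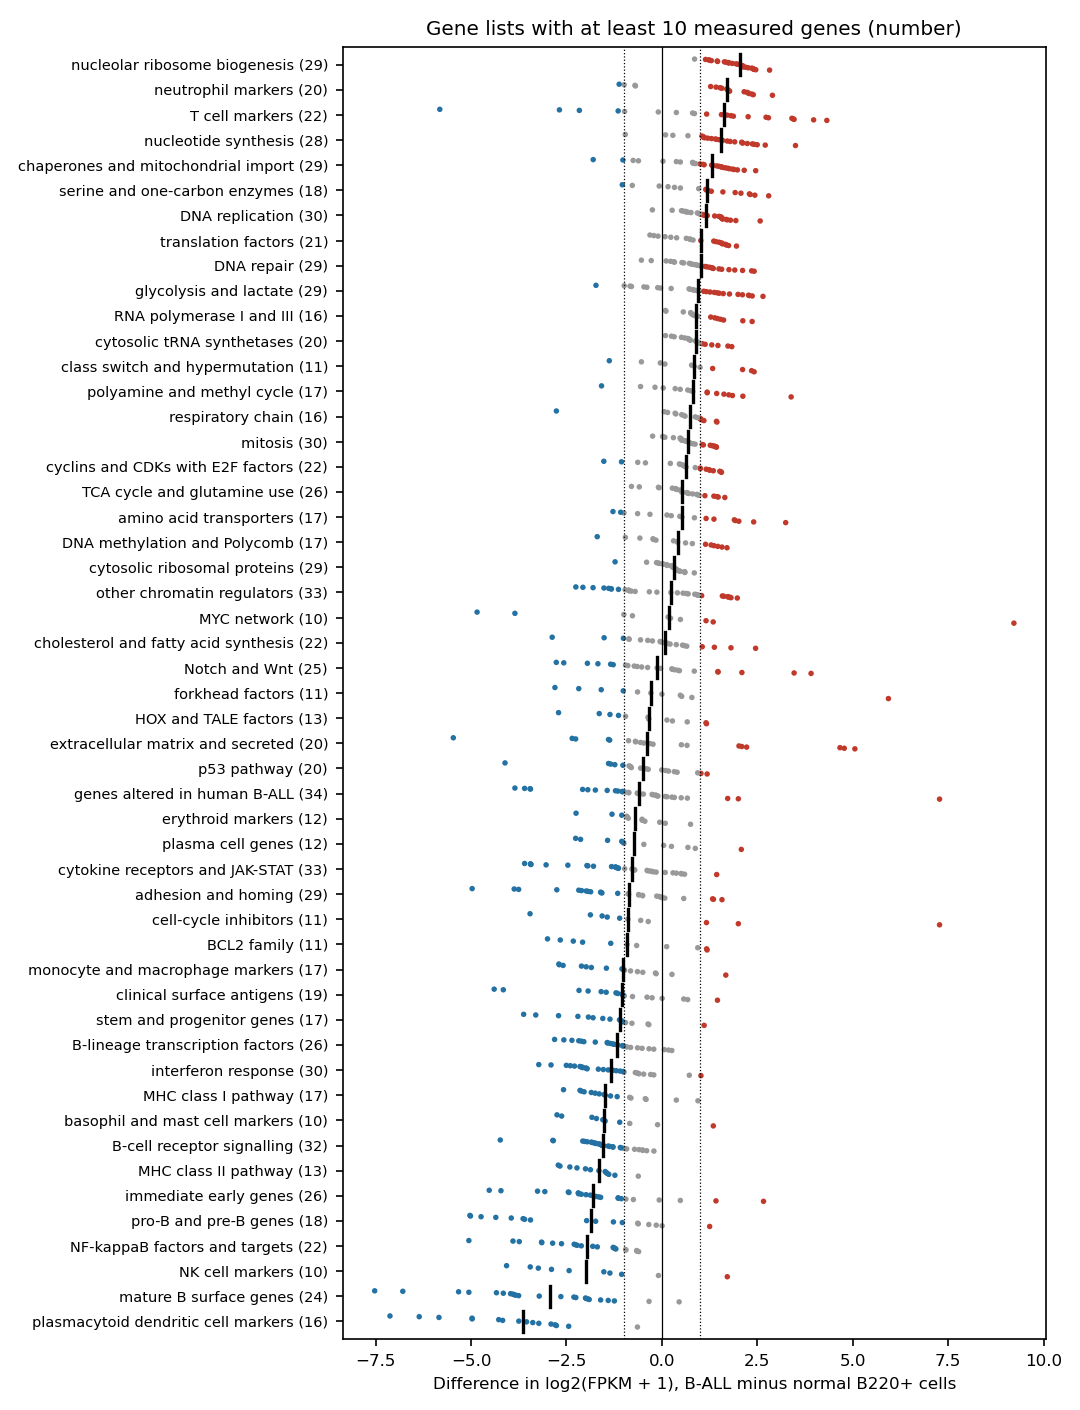
Difference in log2(FPKM + 1), B-ALL minus normal B220+ cells, for every measured gene of the lists with at least 10 such genes (points: red at least 1, blue at most -1, grey between) and the list median (black bar). Ribosome biogenesis has the highest median, 2.04, and plasmacytoid dendritic cell markers the lowest, -3.65.

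The stretches upstream of a glycolysis gene and a ribosome biogenesis gene among these are shown as examples that hold the E-box letters that MYC proteins bind. Most genes of both lists had no promoter that held them: 1 of 24 matched ribosome biogenesis genes and 3 of 28 glycolysis genes did. The sequences are from RefSeq (GRCm38.p6), 5′ to 3′ on the gene's strand, with the motif CACGTG in capitals. The Ldha stretch lies at chr7:46845599-46845803 and the Nop2 stretch at chr6:125131763-125131882, both on the plus strand, and neither holds an annotated exon base.
Ldha: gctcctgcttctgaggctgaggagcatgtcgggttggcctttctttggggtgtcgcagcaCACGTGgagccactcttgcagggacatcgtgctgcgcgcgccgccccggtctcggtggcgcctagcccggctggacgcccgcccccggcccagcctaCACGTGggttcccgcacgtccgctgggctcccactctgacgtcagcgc
Nop2: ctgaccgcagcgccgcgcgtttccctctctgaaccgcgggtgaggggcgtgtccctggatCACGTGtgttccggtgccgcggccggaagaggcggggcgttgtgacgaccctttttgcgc
The Ldha motifs begin 145 and 48 bases before the start given in the table and the Nop2 motif 60 bases before it.

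The letters CACGTG, which read the same on both strands, were counted in the 250 bases before each start. A promoter was matched for 6776 of the 8434 protein-coding genes of the comparison (80.3%). A gene held the motif when the stretch before any of its starts did. The motif was present for 6.86% of all genes with a promoter sequence and for 10.0% of the matched genes of the comparison. Among the matched genes at least 2-fold higher in B-ALL, 159 of 1299 (12.2%) held it, and among genes within 2-fold 10.1% did. Of 43 genes at least 8-fold higher, 1 held it. Of the lower genes fewer than 80% were matched to a promoter, so that share is void and not given. A match in these letters is a description and not evidence of binding, and a longer or nearby E-box was not searched.

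DNA replication had 19 of 30 genes higher and none lower, with a median of 1.15. The polymerase subunit Pold2 had 342 against 56.6, 6.04-fold higher (5.74 to 6.35), and the catalytic subunit Pole had 74.9 against 18.8. All 6 of the Mcm2 to Mcm7 helicase genes were at least 2-fold higher, between Mcm5 (199 against 92.0) and Mcm3 (249.8 against 82.0). Mitotic genes differed less, with 8 of 30 higher and none lower (median 0.68), for example Aurkb (195 against 72.1) and Mki67, a marker of dividing cells, which was within 2-fold (160.4 against 112). Normal B220+ marrow itself contains dividing precursors.

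Cyclin E1 (Ccne1, 73.5 against 24.3), cyclin D1 (Ccnd1, 89.0 against 37.4), Cdk4 (372 against 129) and E2f3 (33.0 against 10.6) were higher, whereas cyclin D2 (Ccnd2, 23.4 against 69.1) and cyclin D3 (Ccnd3, 144 against 301) were lower. Over the list, 9 of 22 genes were higher and 2 lower (median 0.62).

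Of 11 cell-cycle inhibitors 3 were higher, Cdkn2a, Cdkn2b and Wee1 (20.6 against 8.63), 5 were lower and 3 within 2-fold. Cdkn2b, the neighbour of Cdkn2a, had 3.15 FPKM against 0.0360 in normal B220+ cells, where it rested on 2 fragments, and at most 0.233 in every other library. Cdkn1b (p27, 37.3 against 112), Rb1 (42.6 against 117) and the antiproliferative genes Btg1 (28.9 against 327) and Btg2 (50.9 against 189) were lower. ARF stabilises p53 through Mdm2. Of 20 genes of the p53 pathway 2 (10%) were higher and 5 (25%) lower, with a median of -0.49. Over all genes 18.2% were higher and 21.9% lower. Bbc3 (PUMA, 35.6 against 15.1) and Aen (46.1 against 22.2) were the 2 higher, Bax had 154 against 80.1, Cdkn1a (p21) 9.57 against 12.6, Mdm2 48.7 against 72.2 and Trp53 93.0 against 74.0.

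In the BCL2 family, 5 of 11 genes were lower and 2 higher (median -0.92), on both sides of the balance. The protective Bcl2 (3.15 against 16.5), Bcl2l1 (BCL-XL, 7.49 against 52.8) and Bcl2l2 (0.776 against 7.88) were lower, and Mcl1 (216 against 408) was within 2-fold. Of the killing members, Bmf (9.52 against 83.0) and Pmaip1 (5.41 against 15.2) were lower, Bbc3 and Bid (66.1 against 28.8) higher, and Bcl2l11 (BIM) level at 26.2 against 24.0. DNA repair genes leaned up, with 15 of 29 higher and none lower (median 1.01). Ung, which removes uracil from DNA, had 75.1 against 13.3, and the end-processing nuclease Exo1 44.6 against 7.95. Lig4 of end joining had 8.91 against 13.4. Of 11 genes of class switch and hypermutation 4, Ung among them, were higher and 1 lower (median 0.85).

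Genes of interferon response and class I presentation were mostly lower. Of 30 interferon-response genes 19 were lower and 1 higher (median -1.34), with Irf7 at 7.86 against 81.8. Irf7 and Bst2 of this list are also plasmacytoid dendritic cell markers, and the higher gene was Ifitm3 (80.9 against 39.3). In the class I list 11 of 17 were lower and none higher (median -1.48). H2-K1 had 692 against 2329, B2m 774 against 1745 and Tapbp 91.5 against 258, whereas the peptide transporter Tap1 (66.4 against 117) and the immunoproteasome subunit Psmb9 (95.0 against 127) were within 2-fold.

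Immediate early genes, which respond within minutes to signals and to cell handling, were lower for 20 of 26 and higher for 2 (median -1.80). Jun had 15.02 against 297, Egr1 6.79 against 73.5, Fos 112 against 607 and the activation marker Cd69 7.31 against 190.2. Nr4a2 (12.98 against 1.21) and Fosl2 (13.9 against 4.59) were the 2 higher genes. Sorting and handling conditions are not described separately for the 2 samples, and their part was not tested.

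Receptors for cytokines were lower in part. Of 33 genes of the cytokine and JAK-STAT list, 15 were lower and 1, the neutrophil receptor Csf3r (39.8 against 14.1), was higher (median -0.79). The interleukin receptors Il4ra (15.4 against 89.3), Il21r (5.89 against 73.5) and Il2ra (1.66 against 27.7) and the kinase Jak2 (5.61 against 24.4) were lower. Crlf2, the receptor for thymic stromal lymphopoietin, had 44.6 against 53.5, and Stat5b 47.5 against 38.6.

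Adhesion genes differed in both directions. The laminin-binding integrin chains Itga6 (41.6 against 15.7) and Itgb1 (146 against 57.7) were higher, Itga4 (103 against 113) and Cd44 (56.9 against 58.5) were level, and Itgal (26.7 against 81.3) was lower. Cxcr4, which retains B precursors in the marrow, had 101 against 438, 4.34-fold lower (4.21 to 4.46). The list had 3 of 29 genes higher and 13 lower (median -0.87), and the higher Itgam (17.0 against 5.07) is a myeloid integrin. Of 20 matrix and secreted genes 6 were higher (3 without genes that another normal library exceeded 4-fold) and 5 lower, and Serpine2, Lamb2 and Fstl1 headed them.

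Surface antigens used to diagnose or treat leukaemia differed widely. Of 19 measured, 10 were lower and 1 higher. Cd22 (160.1 against 318) was just within 2-fold, Cd52 (163 against 739) 4.53-fold lower (4.36 to 4.70), and Cd20 (Ms4a1) and Cd38 (3.16 against 86.4) far lower. The higher antigen was Cd33 (26.5 against 9.02), a myeloid protein, at 469 in normal Mac1+ Gr1+ cells.

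Genes recurrently altered in human B-ALL did not differ together, with 3 of 34 higher, 12 lower and a median of -0.60. The higher genes were Cdkn2a, Cdkn2b and the thymic factor Tox (5.32 against 0.916). Lower ones included the suppressors Btg1 and Rb1, the adaptor Sh2b3 (40.4 against 138) and the receptors Il7r and Flt3, while Crebbp (40.6 against 44.5), Nt5c2 (23.4 against 26.4) and Etv6 (15.9 against 25.5) were within 2-fold. Most of these genes are altered by mutation or fusion, which levels of RNA do not show.

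Among chromatin genes the enzymes of replication-coupled methylation were higher, Dnmt1 (251 against 83.7) and its partner Uhrf1 (279 against 113). The arginine methyltransferases Prmt5 (203 against 50.9) and Prmt1 (451 against 135), the architectural protein Hmga1 (624 against 177) and the helicases Ruvbl1 (183 against 54.6) and Ruvbl2 (229.8 against 76.1) were higher as well. Ezh2 of Polycomb complex 2 was within 2-fold (178 against 144), Cbx2 of complex 1 higher (23.8 against 6.61) and Cbx7 lower (48.9 against 160.4). The class IIa deacetylases were divided, with Hdac4 at 19.4 against 8.92, Hdac5 at 49.3 against 143 and Hdac9 at 5.43 against 29.7. Of the 2 chromatin lists, 6 of 17 and 8 of 33 genes were higher and 1 and 8 lower. The list of 33 thus had 24.2% in either direction, against 18.2% higher and 21.9% lower over all genes.

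Fetal genes were sparse. Of 13 measured genes 4 had at least 1 FPKM in either library, and the RNA-binding proteins Igf2bp3 (22.03 against 2.08) and Lin28a (7.22 against 2.29) were higher. AML had 50.6 of Igf2bp3. Stem and progenitor genes were mostly lower, 12 of 17 with 1 higher (7 lower without genes that another normal library exceeded 4-fold), such as Lmo2 (16.2 against 168) and Ly6a (8.12 against 111), and Hoxa7 had 0.0574 against 5.91 and Hoxa9 0.404 against 2.61. In the Wnt and Notch list Rnf43, Znrf3 (11.1 against 1.84) and the T-cell factor Tcf7 had the highest differences, whereas Notch1 (47.4 against 92.6) was within 2-fold, Notch2 (17.3 against 45.4) lower and Hes1 level (34.5 against 35.3). That list had 5 of 25 genes higher and 6 lower (3 at FPKM of at least 5). These shares (20% and 24%) were near those of all genes (18.2% and 21.9%). The HOX and TALE list had 2 of 13 higher and 4 lower (2 at FPKM of at least 5). The forkhead list, where Foxf2 was the higher gene, had 1 of 11 higher and 4 lower.

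The difference was not even along the genome. Among 8434 protein-coding genes, 1599 were higher and 1704 (20.2%) lower, with a median of 0.03. On chromosome 19, 137 of 331 genes (41.4%) were lower and 25 (7.55%) higher, with a median difference of -0.71. On chromosome 16, 103 of 293 genes (35.2%) were higher and 49 (16.7%) lower, with a median of 0.50. The medians of the other 18 chromosomes ran from -0.25 on chromosome 1 to 0.31 on chromosome 18.

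Both shifts ran along the whole chromosome. When the genes of each were cut into 6 consecutive bins, all 6 bins of chromosome 19 had negative medians (-0.86 to -0.33) and all 6 of chromosome 16 positive ones (0.17 to 0.78). Without the genes of any list the medians were -0.73 and 0.54. On chromosome 19, 72.8% of genes were below 0. The lower genes of chromosome 19 in these results include Ms4a1, Dntt, Nfkb2, Pik3ap1, Scd1 and the abundant nuclear noncoding RNA Malat1 (229 against 1527), and chromosome 16 holds Fstl1 and Trat1 among the higher genes and Igll1, Vpreb1 and Vpreb2 among the lower.

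The other pairs put these shifts in context. On chromosome 19 T-ALL had a median of 0.02, AML 0.24 and AUL -0.26, each against its own normal library, where all protein-coding genes had 0.06, 0.49 and -0.19. For chromosome 16 it was 0.17, 1.59 and -0.14. In 150 chromosome 19 genes with at least 5 FPKM in all 8 libraries, the B-ALL level relative to the mean of the libraries was -0.55 on the log2 scale after removal of the median of all such genes, and the other 7 libraries lay between -0.16 and 0.34. For 114 such genes of chromosome 16 B-ALL had 0.44 and AML 0.54, with -0.53 to -0.04 in the other 6. DNA was not analysed here.

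**Figure D5:**
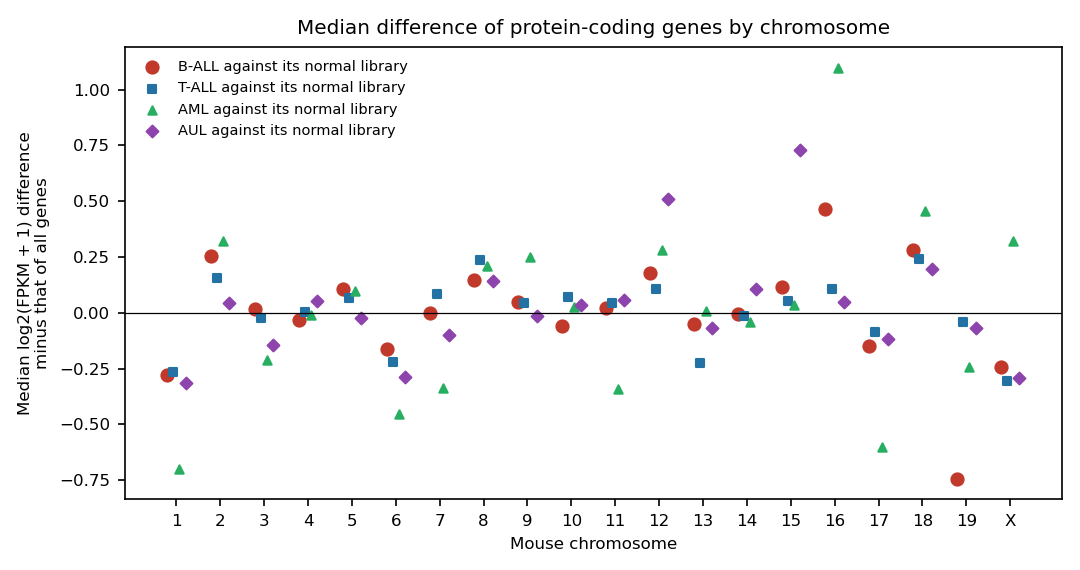
Median difference in log2(FPKM + 1) of the protein-coding genes of each mouse chromosome, minus the median of all protein-coding genes, for the 4 leukaemias against their normal libraries. In B-ALL (red circles) chromosome 19 lies lowest, at -0.74, and chromosome 16 highest, at 0.47.

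Classes of RNA differed in direction. Over all genes 18.2% were higher and 21.9% lower. Of 115 small nucleolar RNA genes 49 were higher and 18 lower (median 0.72). Of 569 processed pseudogenes 96 were higher and 59 lower, both shares below those of all genes. Long intergenic noncoding RNAs (29 of 236 higher, 61 lower) and antisense genes (14 of 256 higher, 65 lower) leaned down. Whether strand was used in counting is not given, so an antisense gene and its partner cannot be told apart, and small nucleolar RNAs lie in introns of other genes. The mitochondrial genome made up 2.56% of summed FPKM in B-ALL and 3.11% in normal B220+ cells.

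Correlations were taken across the 10608 compared genes, which are not independent replicates. B-ALL had a Pearson r on log2(FPKM + 1) of 0.823 with normal B220+ cells. With AUL it had 0.896, with T-ALL 0.873, with AML 0.840 and with lineage-negative cells 0.858. With normal CD3+ cells it had 0.818 and with normal Mac1+ Gr1+ cells 0.693. The genes were chosen by their level in B-ALL or normal B220+ cells, so genes high only in another library were left out. The r values are therefore not like for like and give no ranking of the libraries. Of the 1929 higher genes, 1037 were also higher in T-ALL against CD3+ cells, which is 53.8% of the B-ALL list and 44.9% of the T-ALL list. The shared genes with AML were 1222 (63.3% and 28.3%) and with AUL 592 (30.7% and 40.5%). In those 3 comparisons 22.1%, 43.3% and 13.6% of all genes were higher and 24.0%, 26.7% and 29.5% lower. Of the 16434 genes of the deposited table, 282 were higher and 425 lower in all 4 pairs. In the B pair 158 genes were higher and 430 lower while within 2-fold in the other 3. What overlap the shares alone would give was not worked out, so these counts are descriptions only.

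Of the 2319 lower genes, normal B220+ cells were at least 2-fold above each of the 7 other libraries for 449 and above each of the 3 other normal libraries for 477. Of the 1929 higher genes, B-ALL was at least 2-fold above all 7 others for 115. No such counts are given for the other libraries.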

How the data were processed

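RNA-seq of 8 libraries, 1 per group, was used as deposited. The FPKM values were made by the authors; per the submitters' processing notes, STAR, HTSeq, edgeR and mm10 were used, with versions and roles not given in the sources used here. The rule by which genes entered the table is not stated, and since its name refers to differential genes, shares refer to the listed genes only. FPKM multiplied by the mean transcript length of GENCODE vM21 fell within 0.02 of whole multiples of 1 step per library for 94.4% to 95.3% of values of single-transcript genes (72.8% to 75.8% of all), which gave totals and the fragments behind each value.

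Computed here (Python 3.11.15, pandas 2.3.3, numpy 2.4.6, scipy 1.17.1): log2(FPKM + 1) differences where either library reached an FPKM of 1, and exact 95% intervals of fold with a floor of 3 fragments for 0. Recovery of totals and interval coverage were tested on simulated data made of whole fragments with the same transcript lengths. That simulation does not cover the deposited values that were not whole multiples. With 1 library a side no count test was run.

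The members, the 54 gene lists and the rule for named genes were chosen with earlier results of these data known. The rule took Mycn, the 25 highest and 25 lowest genes with at least 10 FPKM (antigen receptor segments and genes known by a prediction or clone number left out), 10 abundant genes within 0.25, and up to 8 members per list with at least 5 FPKM, and any other list gene could be named. Genes high only in B-ALL, receptor segments, Malat1 and the chromosome results were chosen after their values were seen. Where a gene and a paralogue or overlapping gene share reads, the authors' counting could split them. Alternatives were other scalings, another pseudocount, other filters and thresholds.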

Additional observations from a re-analysis of the deposited data

Results flagged for a closer look

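Neutrophil markers differed in opposite directions between the pairs. Their median difference in log2(FPKM + 1) was 1.72 in B-ALL against normal B220+ cells and 0.39 in T-ALL against CD3+ cells, but -4.57 in AML against Mac1+ Gr1+ cells and -3.29 in AUL against lineage-negative cells. The pairs have 1 library a side, so the difference between them was not tested. The normal Mac1+ Gr1+ and lineage-negative libraries themselves held summed neutrophil marker levels of 204732 and 33748 FPKM.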

How the results depend on the processing

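Each comparison rests on 1 library a side, so no replicate could be left out and biological spread is unknown. No paired analysis was possible because each group has a single library and no test was run. With median-of-ratios scaling the median difference over all genes moved to -0.13, with 1562 genes higher and 2513 lower, so the higher share of calls went from 45.4% to 38.3%. At a 4-fold threshold 361 genes were higher and 743 lower. With a common FPKM sum 1830 were higher and 2494 lower, with a pseudocount of 0.1 2381 and 2812, at FPKM of at least 5 1519 and 1770, and after removal of genes that another normal library exceeded 4-fold 1569 and 2197. The last setting removes marker genes of other cell types by construction and left 0 T cell markers higher, with a median of -3.48. Of 54 list counts, 52 stayed within 1.5 times under median-of-ratios scaling, 53 under a common sum, 54 with the other pseudocount, 51 at FPKM of at least 5, 54 without a filter, 45 without the genes of other normal cells and 8 at 4-fold. None of the 50 named genes changed sign under the 2 scalings, the other pseudocount, FPKM of at least 5 or no filter. These genes were recomputed in those settings only. They were picked as the highest and lowest of the same data, and the filter settings do not alter a gene's value. The absence of a sign change is therefore no check on them. With the pseudocount of 0.1 the size of the difference moved for 45 of the 50. Foxf2 went from 5.93 to 9.23 and Alb from -5.11 to -8.39. The chromosome counts, whose alternatives were chosen after seeing the data, ran from 84 to 111 higher genes on chromosome 16 and from 117 to 149 lower genes on chromosome 19, leaving aside the 4-fold threshold (22 and 30). Values well under 1 FPKM, and those of short receptor segments, rest on few fragments.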
